A study of Homo sapiens with 8 samples.

Results

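The genes described are 9 transcription factor genes that mark or maintain neural progenitors, namely SOX1, SOX2, SOX3, SOX9, SOX21, PAX6, OTX2, LHX2 and SIX3. They were chosen by name, and all 9 were found among the 19821 protein-coding genes annotated on chromosomes 1 to 22 and X of GRCh38. Each gene was examined over its body and 50 kb to either side, a window of 102.1 kb at SOX3 to 128.9 kb at PAX6, and no window overlapped another. The cells were neural progenitors. They were induced from human embryonic stem cells of the established line H9 that had been infected with lentivirus and selected with puromycin. Chromatin immunoprecipitation with sequencing (ChIP-seq) mapped dimethylation of lysine 36 of histone H3 (H3K36me2) in cells with the KDM2A hairpin sh1, in cells with the KDM2A hairpin sh4 and in control cells labelled NC. The hairpins were chosen by the study as the most effective of a larger set. KDM2A itself was mapped in NC cells only. Every group holds 1 library, both hairpins are set against the same NC library, and no value below has a replicate check or a test between groups. The lists hold no RNA, so neither the loss of KDM2A in the hairpin cells nor the progenitor identity given by the labels was checked here. The H3K36me2 lists held 19501 regions over 94.3 Mb in sh1, 21493 over 112.1 Mb in sh4 and 19691 over 101.8 Mb in NC, and the KDM2A list held 504724 peaks. The study's design text raises KDM2A at the starts of neurogenesis genes and H3K36me2 at regulatory elements after knockdown, and the windows below give both for these genes.

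KDM2A is a demethylase that removes H3K36me2 and binds CpG-rich DNA that is free of DNA methylation through a zinc finger. H3K36me2 is deposited over wide stretches of gene bodies and intergenic chromatin and is generally low over CpG islands. SOX1, SOX2 and SOX3 form the SOXB1 group, HMG-box factors that hold progenitors in an undifferentiated state. SOX21 is their SOXB2 relative, a repressor that counteracts them in the chick neural tube. SOX9 serves neural stem cells and glial fate. PAX6, OTX2, LHX2 and SIX3 are homeodomain factors that pattern the forebrain and eye, and SIX3 also represses Wnt signalling in the anterior neural plate in mice.

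On GRCh38 the SOXB1 genes lie on chromosome 13 (SOX1, gene ID 6656, 112067149 to 112071706), chromosome 3 (SOX2, 6657, 181711925 to 181714436) and chromosome X (SOX3, 6658, 140502985 to 140505069). SOX21 (11166) lies on chromosome 13 at 94709622 to 94712545 and SOX9 (6662) on chromosome 17 at 72121020 to 72126416. Of the homeodomain genes, PAX6 (5080) lies on chromosome 11 at 31789026 to 31817961 and OTX2 (5015) on chromosome 14 at 56799905 to 56810479. LHX2 (9355) lies on chromosome 9 at 124011768 to 124033301 and SIX3 (6496) on chromosome 2 at 44941702 to 44946071. Positions below are given along these coordinates, with "above" for higher and "below" for lower ones, whatever the gene's strand.

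KDM2A is known for CpG-rich promoters, so the promoter sequences are shown first. RefSeq promoter windows (GRCh38.p14, 250 bases before to 50 after a start) were matched for 7 of the 9 genes, 16 windows in all, of which PAX6 has 9 and OTX2 has 2. SOX9 and SIX3 are named only. In the following windows capitals mark the dinucleotide CG, which reads the same on both strands. They show the member with the most CG at its start (SOX1), the central progenitor factor (SOX2), the window that lies closest to a KDM2A peak among the most upstream windows (SOX21), and a start that is poor in CG (OTX2).
SOX1, chr13:112066899-112067198, plus strand: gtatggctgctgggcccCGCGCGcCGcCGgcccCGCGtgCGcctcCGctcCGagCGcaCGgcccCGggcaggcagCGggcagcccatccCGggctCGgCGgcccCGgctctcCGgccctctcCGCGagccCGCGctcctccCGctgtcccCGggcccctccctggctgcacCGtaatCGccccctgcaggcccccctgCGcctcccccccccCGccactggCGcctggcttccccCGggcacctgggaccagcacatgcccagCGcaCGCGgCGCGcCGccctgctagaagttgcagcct
SOX2, chr3:181711675-181711974, plus strand: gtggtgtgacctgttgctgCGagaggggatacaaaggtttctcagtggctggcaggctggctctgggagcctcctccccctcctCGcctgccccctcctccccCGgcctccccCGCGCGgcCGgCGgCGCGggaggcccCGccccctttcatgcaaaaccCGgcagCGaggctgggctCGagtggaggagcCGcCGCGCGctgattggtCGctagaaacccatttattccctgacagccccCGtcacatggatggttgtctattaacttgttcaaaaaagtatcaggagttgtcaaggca
SOX21, chr13:94712496-94712795, minus strand: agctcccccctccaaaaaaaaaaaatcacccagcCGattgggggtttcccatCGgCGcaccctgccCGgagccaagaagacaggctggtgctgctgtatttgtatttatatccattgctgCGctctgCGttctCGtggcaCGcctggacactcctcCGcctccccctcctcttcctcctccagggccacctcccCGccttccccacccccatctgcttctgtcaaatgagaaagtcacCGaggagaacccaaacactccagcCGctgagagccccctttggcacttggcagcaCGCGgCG
OTX2, chr14:56810430-56810729, minus strand: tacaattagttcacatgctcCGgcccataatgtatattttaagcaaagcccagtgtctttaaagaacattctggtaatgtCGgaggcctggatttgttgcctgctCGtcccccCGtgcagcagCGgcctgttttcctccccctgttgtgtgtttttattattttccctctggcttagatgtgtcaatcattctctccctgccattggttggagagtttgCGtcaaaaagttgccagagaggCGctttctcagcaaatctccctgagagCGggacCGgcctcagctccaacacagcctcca

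In the next windows, at internal starts of PAX6, capitals mark the bases inside a KDM2A peak. They are shown because they hold the longest overlaps of a peak with any promoter window of the 9 genes.
PAX6, chr11:31805952-31806251, minus strand: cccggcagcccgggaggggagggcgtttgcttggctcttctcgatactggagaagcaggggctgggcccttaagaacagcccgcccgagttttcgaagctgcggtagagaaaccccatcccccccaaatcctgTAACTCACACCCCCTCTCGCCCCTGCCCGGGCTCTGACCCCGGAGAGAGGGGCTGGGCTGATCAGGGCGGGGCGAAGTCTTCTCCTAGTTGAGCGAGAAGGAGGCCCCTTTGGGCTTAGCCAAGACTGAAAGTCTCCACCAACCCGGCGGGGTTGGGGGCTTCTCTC
PAX6, chr11:31800612-31800911, minus strand: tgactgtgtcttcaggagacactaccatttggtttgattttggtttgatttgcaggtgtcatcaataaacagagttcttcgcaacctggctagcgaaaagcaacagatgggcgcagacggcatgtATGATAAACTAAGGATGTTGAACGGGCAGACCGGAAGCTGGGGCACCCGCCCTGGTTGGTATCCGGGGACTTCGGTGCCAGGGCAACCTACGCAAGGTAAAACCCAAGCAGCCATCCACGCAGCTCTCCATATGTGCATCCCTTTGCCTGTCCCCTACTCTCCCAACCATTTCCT

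No KDM2A peak touched the most upstream promoter window of any of the 7 genes. Of the 16 windows 4 overlapped a KDM2A peak, all 4 at internal starts of PAX6, beside 21.0% of 22132 promoter windows of all protein-coding genes. By gene this was 1 of 7, beside 25.7% of 15812 genes. At these numbers neither share stands away from the background. The 16 windows held a median of 17 CG, beside 21 over all promoter windows. The SOX1 window held 37 CG, the LHX2 window 30, the most upstream PAX6 window 24, the SOX2 and SOX3 windows 20 each, the SOX21 window 15 and the most upstream OTX2 window 9. SOX2, SOX3, SOX21 and OTX2 thus lie below the median of all promoter windows, 98.1% of which held at least 1 CG. Across all promoter windows the share with a KDM2A peak was 14.3% with 0 to 4 CG, 20.0% with 10 to 19 CG and 26.0% with 30 or more CG, given as a description. The SOX1 and LHX2 windows and the PAX6 window at 31804992, with 32 CG, are in the last class and had no peak. Most windows of that class had none.

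Among the 7 genes with matched promoter windows, the distance from the start to its nearest KDM2A peak varied widely. At SOX21 the peak ended 104 bp from the start and 54 bases short of the promoter window. At SOX3 the nearest peak lay 313 bp away, at LHX2 716 bp, at the most upstream OTX2 start 831 bp and at the most upstream PAX6 start 1142 bp. At SOX1 it lay 2647 bp away and at SOX2 5222 bp. The SOXB1 genes thus span the range from close to distant. SOX9 and SIX3 had no matched start and are not in this list. Outside their bodies the nearest peak lay 598 bp from SOX9 and 210 bp from SIX3. Of the PAX6 starts with overlaps, the window at 31805952 held 167 bases and 8 CG inside a peak of 316 bp with a pileup of 10, and the window at 31800612 held 175 bases and 7 CG inside a peak of 333 bp with a pileup of 9. The overlaps at the other PAX6 windows were 37 bases, in a peak with a pileup of 6, and 12 bases, in another peak with a pileup of 6. The pileup is the authors' value, the height of fragments stacked at the peak, whose scaling is not stated. It is a whole number at 100% of peaks, and their p-values matched a Poisson count of the pileup over the local background within 0.1% for 100% of peaks.

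Over the whole windows KDM2A peaks were slightly denser than in all gene windows and about as dense as near genes of like length. The 9 windows held 224 peaks in 982.9 kb, 22.8 per 100 kb (95% exact Poisson interval 19.9 to 26.0), and the median window held 23.5 per 100 kb. Over all protein-coding gene windows the pooled value was 19.5 and the median 19.8 per 100 kb. Among the 10792 genes no longer than PAX6, the longest of the 9 at 28.9 kb, the pooled value was 21.9 and the median 21.6. The interval of the 9 windows leaves out both values of all genes, by a small margin, and holds both values of the genes of like length. It treats the peaks as independent counts and covers counting error only.

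By gene, SIX3 had the densest window, with 35 peaks or 33.5 per 100 kb (23.4 to 46.6). SOX1 followed with 29 peaks (27.7 per 100 kb), SOX9 with 27 (25.6), LHX2 with 30 (24.7), SOX3 with 24 (23.5), OTX2 with 24 (21.7) and PAX6 with 27 (20.9). SOX2 had 14 peaks, 13.7 per 100 kb (7.47 to 22.9), and SOX21 had 14, 13.6 per 100 kb (7.44 to 22.8). The intervals of neighbours in this order overlap at every step. Those of SIX3 and SOX2, and of SIX3 and SOX21, do not. SIX3 was the 1 gene of 9 whose interval left out the median of all windows, and 95.6% of all windows were less dense. For SOX2 and SOX21 that share was 16.3% and 16.1%.

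**Figure D1:**
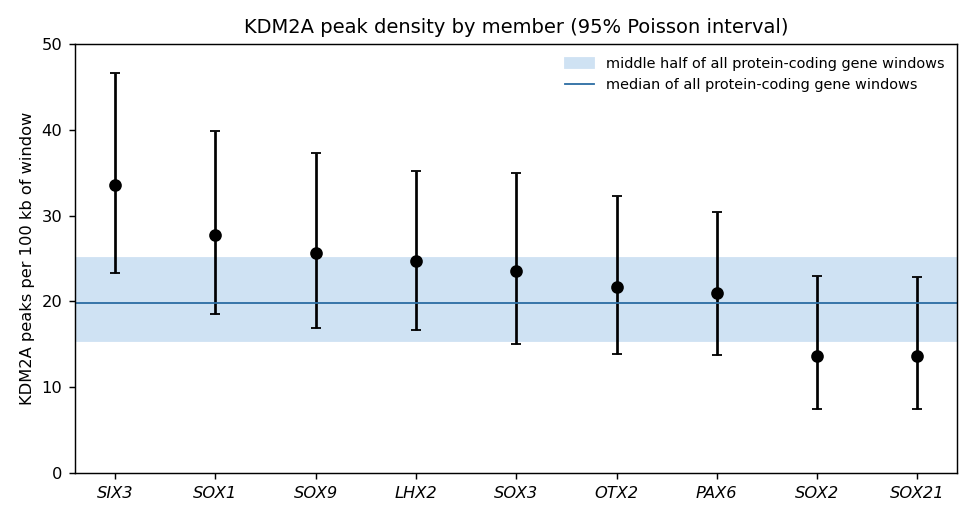
KDM2A peaks per 100 kb in the window of each gene in NC cells (y axis), ordered from highest to lowest, with 95% exact Poisson intervals that cover counting error only. The line is the median of all protein-coding gene windows, 19.8, and the band their interquartile range. SIX3 lies highest at 33.5, and SOX2 and SOX21 lowest at 13.7 and 13.6.

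Inside the gene bodies the density of KDM2A peaks was above that of the flanks, a difference that was not tested. The 9 bodies held 30 peaks in 82.9 kb, 36.2 per 100 kb (24.4 to 51.7), and the flanks held 194, 21.6 per 100 kb (18.6 to 24.8). The intervals overlap narrowly, which does not measure the difference between them. Over all protein-coding genes the bodies held 17.5 and the flanks 20.8 per 100 kb, and among genes no longer than PAX6 23.7 and 21.7. The interval of the 9 bodies leaves out both body values, that of genes of like length by a small margin. PAX6 carried 12 of the 30 peaks, in 28.9 of the 82.9 kb. Without PAX6 the other 8 bodies held 33.4 per 100 kb (19.8 to 52.7), an interval that overlaps that of the flanks more widely. It leaves out the 17.5 of all genes and holds the 23.7 of genes of like length. The 12 PAX6 peaks gave its body 41.5 per 100 kb, against 15.0 per 100 kb in its flanks, and their pileups were 5 to 10. Body density was above flank density at 6 of the 9 genes and below it at SOX1, SOX2 and OTX2. The share of all genes with a denser body was not computed, so this count has no background beside it. In a short body few peaks are enough, and at SOX3 it was 1 peak. Bodies denser than that of PAX6 were SOX21 (68.4), SOX9 (55.6), SOX3 (48.0) and SIX3 (45.8), each from 1 to 3 peaks. LHX2 had 7 peaks in its body, SOX9 had 3, and SOX21, OTX2 and SIX3 had 2 each. SOX1 and SOX3 had 1 each, and SOX2 had 0. A peak in the body was thus present at 8 of the 9 genes, beside 90.1% of all genes. Next to the bodies, the first 10 kb on either side held 52 peaks, 28.9 per 100 kb (21.6 to 37.9). The value was 21.8 over all genes and 22.7 among genes no longer than PAX6, and the interval holds both, near its lower end. From 10 to 50 kb the 10 kb steps held 19.4 to 21.7 per 100 kb, beside 21.1 to 21.4 over all genes.

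By their medians the peaks were about as low and as short as elsewhere, while the shares of high and of long peaks were somewhat larger, which was not tested. The median pileup was 8 in the 9 windows and 8 over all peaks in protein-coding gene windows, and the median length was 228 bp (interval 206 to 253) and 216 bp. Lengths ran from 151 bp, the shortest in the whole list, to 751 bp in the SIX3 window. Of the 224 peaks 47 (21.0%) had a pileup of 10 or more, beside 16.9% of all peaks in gene windows, and 27 (12.1%) were 400 bp or longer, beside 8.53%. By gene the median pileup was 7 at SOX2 and SIX3, 7.5 at SOX21 and 8 at the other 6. The median length was 163 bp at SOX9, 194 bp at SOX21, 208 bp at LHX2, 212 bp at SOX3, 222 bp at SOX2, 228 bp at SOX1, 254 bp at SIX3, 260 bp at PAX6 and 261 bp at OTX2. By gene, median pileups thus ran from 7 to 8 and median lengths from 163 to 261 bp. The scales differ and the medians have no interval by gene, so neither range was tested or ranked against the other. The longest peak was 642 bp at SOX21, whose promoter it nearly reached, and 668 bp at OTX2, and it was 431 bp at SOX9. Taken as a count of fragments, a pileup of 8 has an exact Poisson interval of 3.45 to 15.8, so most differences in height between single peaks here lie within counting error.

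Few peaks passed a false discovery rate (FDR) of 0.05. The deposited list carries FDR values up to 0.869, and 3.13% of its 504724 peaks lie under 0.05. In the 9 windows 8 peaks did (3.57%), and they belonged to 5 of the 9 genes, beside 56.7% of all gene windows. LHX2 had 2 of them. One lay 18.6 kb below the gene on the coordinate axis, with a pileup of 14 (7.65 to 23.5), a fold of 3.89 over local background and an FDR of 0.00471, and the other 40.0 kb below it with a pileup of 11. At OTX2 such a peak lay 1.77 kb beyond the end of the body that carries the upstream start (chromosome 14, 56812255 to 56812686), with a pileup of 12 (6.20 to 21.0), a fold of 3.94 and an FDR of 0.00913. It falls inside the antisense gene OTX2-AS1. The position is outside the promoter window, and this was the strongest peak within 10 kb of any of the 9 genes by FDR.

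SOX3 had 1 peak under the limit, 34.8 kb above the gene (chromosome X, 140539870 to 140540102), with a pileup of 13 (6.92 to 22.2), a fold of 4.24 and an FDR of 0.00231, the lowest FDR of the 224. SOX9 had a peak 0.598 kb below its body with a pileup of 11, a fold of 3.63 and an FDR of 0.0302, within SOX9-AS1, and another 39.6 kb above it with a pileup of 12 and an FDR of 0.0454. SOX1 had peaks 3.92 and 45.7 kb below its body, each with a pileup of 11, with folds of 3.44 and 3.56 and FDR values of 0.0474 and 0.0371. All these peaks lie in flanks. SOX2, SOX21, PAX6 and SIX3 had 0 peaks under the limit, and the lowest FDR at SOX2 was 0.0644, at a peak with a pileup of 12 that lay 21.5 kb above it. The highest pileup in any of the windows, 16 (9.15 to 26.0), lay 33.8 kb below LHX2, and its FDR was 0.108. The local background there, recovered from pileup and fold, was also high at 5.47.

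**Figure D2:**
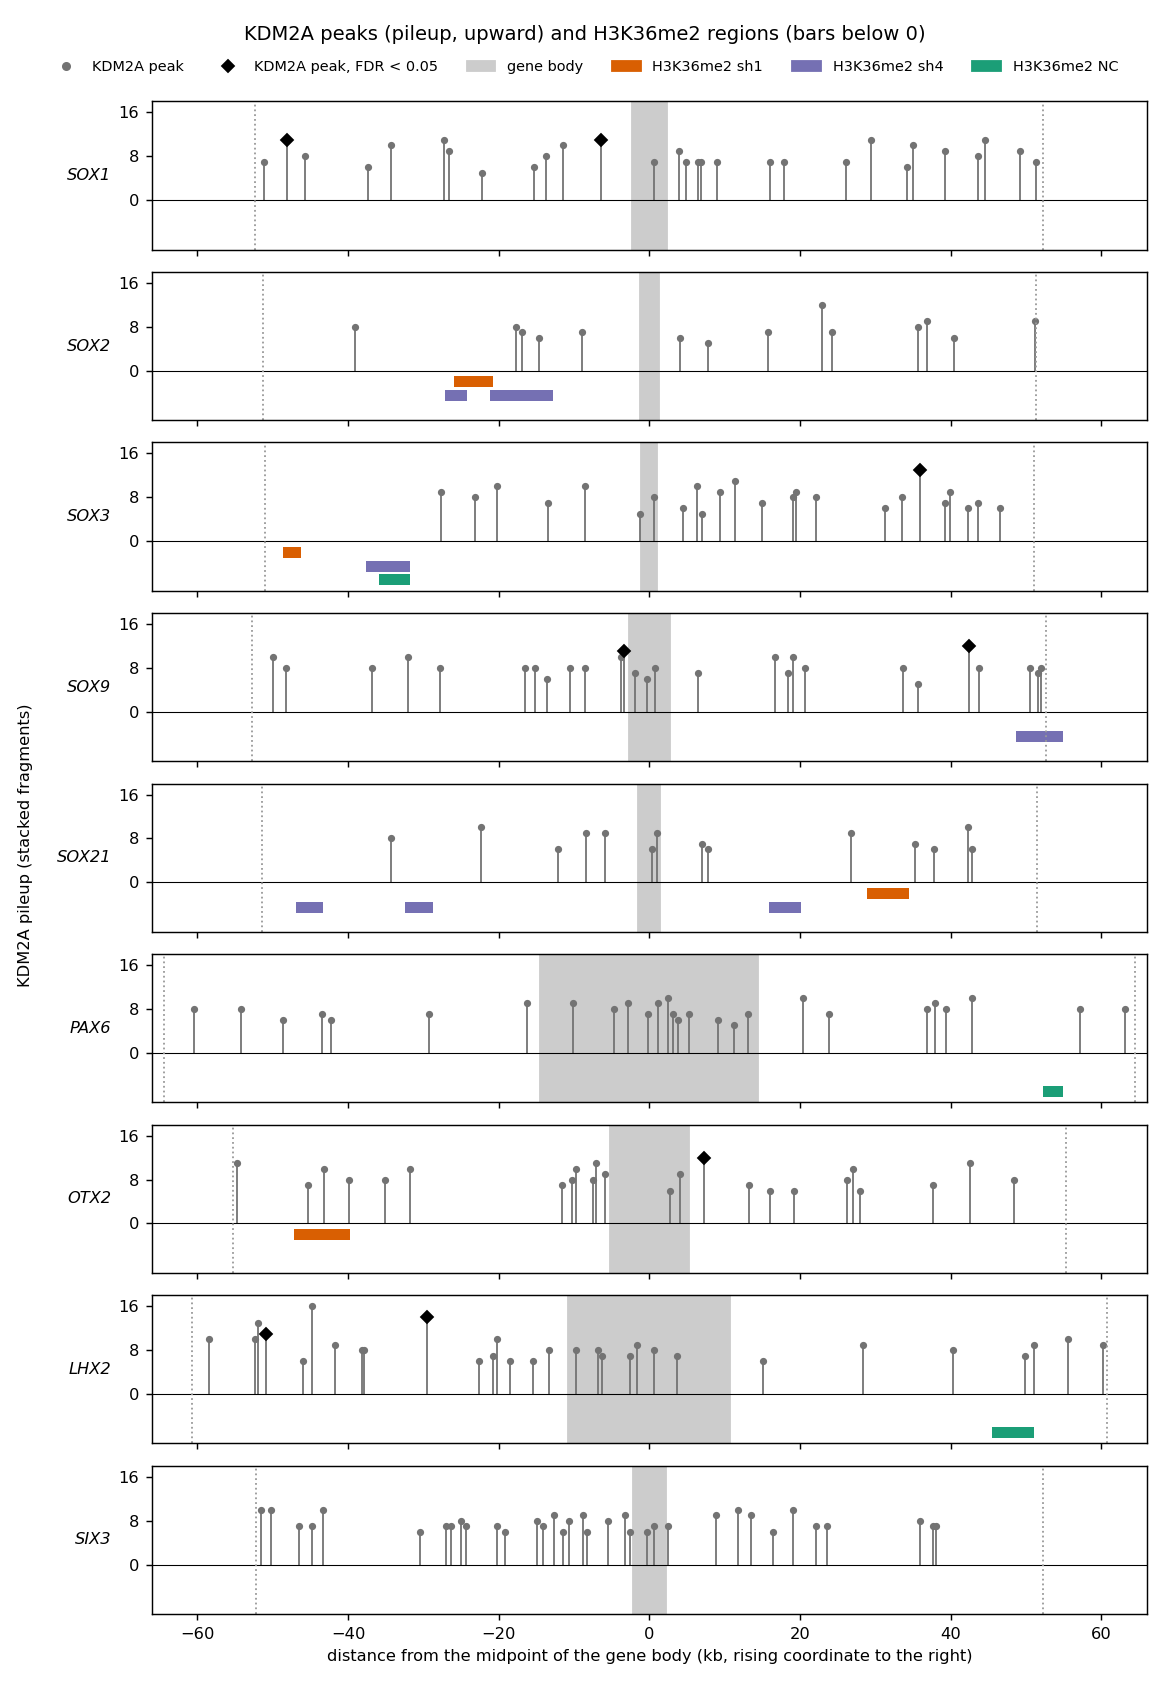
Each panel is the window of 1 gene, with distance from the midpoint of the gene body on the x axis (kb, rising coordinate to the right) and KDM2A pileup in NC cells on the y axis. Circles are KDM2A peaks, diamonds those with an FDR under 0.05, the grey band is the gene body, dotted lines are the window's limits, and bars under 0 are H3K36me2 regions of sh1, sh4 and NC. The 12 peaks in the PAX6 body stand close together, and no H3K36me2 region touches a gene body.

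Most of these windows hold few other genes. ELP4, a subunit gene of the Elongator complex that overlaps the end of PAX6 (chromosome 11, 31509767 to 31790324), is the 1 other protein-coding gene that reaches into any of them, and 7 of the 27 peaks of the PAX6 window lie in it. Noncoding genes are common. SOX1 and SOX2 lie inside the noncoding genes SOX1-OT and SOX2-OT, which hold 24 of 29 and 10 of 14 of their windows' peaks. The antisense gene SOX9-AS1 holds 12 of 27 peaks of the SOX9 window, LINC01833 10 of 35 at SIX3 and OTX2-AS1 10 of 24 at OTX2. Long genes hold many peaks by length alone. SOX1-OT (111972310 to 112108015) spans most of the SOX1 window (112017149 to 112121706). SOX2-OT (181056680 to 181742228) spans most of the SOX2 window (181661925 to 181764436). These counts therefore do not show that peaks gather in the noncoding genes, which was not tested.

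H3K36me2 regions lay in the flanks of 7 of the 9 genes and on none of the gene bodies. The other 2, SOX1 and SIX3, had no region in any library, beside 45.6% of all gene windows. The deposited lists give regions on a grid of 200 bp, each with the authors' fold over background and an FDR under 1e-05, and a stretch without a region may hold the mark below that limit. Each of the 9 bodies was covered over 0% in sh1, in sh4 and in NC. Among all protein-coding genes the body carried a region in 16.2% in sh1, 15.4% in sh4 and 20.0% in NC, and in 29.4% in at least 1 library. Among the genes no longer than PAX6 this last share was 7.69%, so 0 of 9 is close to the background for short genes. The 14 regions in the windows lay 11.5 to 46.0 kb from the bodies, with folds of 1.34 to 2.11. Their read counts, recovered from the deposited fold and p-value under a Poisson model, were 95 to 290 immunoprecipitated reads per region.

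The number of genes with a region in the window was 4 of 9 in sh1, 4 of 9 in sh4 and 3 of 9 in NC. Over all protein-coding gene windows it was 31.0% in sh1, 28.7% in sh4 and 41.7% in NC, and among genes no longer than PAX6 17.5%, 15.6% and 27.5% in the same order. There were 4 regions in sh1 (exact Poisson interval 1.09 to 10.2), 7 in sh4 (2.81 to 14.4) and 3 in NC (0.619 to 8.77), and these intervals overlap. All 7 sh4 regions and 3 of the 4 sh1 regions lay near SOX genes, against 1 of the 3 NC regions, a grouping made after the values were seen. The SOX genes are 5 of the 9. At SOX1, SOX2, SOX9 and SOX21 the nearest NC region lay 54.0 to 65.3 kb away, beyond the flank of 50 kb, so this grouping depends on the flank chosen. The regions in the windows covered 20.6 kb in sh1, 32.8 kb in sh4 and 12.2 kb in NC, or 2.10%, 3.34% and 1.24% of the windows. Set over NC, covered length was 1.69 times in sh1 and 2.69 times in sh4, where all gene windows gave 0.793 and 0.858 times and those of genes no longer than PAX6 0.626 and 0.643 times. With flanks of 100 kb both ratios turned, to 0.501 for sh1 and 0.808 for sh4. With regions above the NC median fold alone the sh1 ratio turned to 0.923. No direction is therefore given for these genes as a group.

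Among the SOXB1 genes, SOX2 showed H3K36me2 regions in both hairpins and none in NC. The sh1 region (chromosome 3, 181687201 to 181692400) had a fold of 1.56 (95% interval from its 148 immunoprecipitated and 94 input reads, 1.19 to 2.04). In sh4 there were 2 regions. The first, at 181686001 to 181689000, had a fold of 2.11 (1.51 to 2.97; 115 and 54 reads), the highest of the 14, and the second, at 181692001 to 181700400, a fold of 1.34 (1.12 to 1.61; 290 and 214 reads). The sh1 and sh4 regions shared 2200 bp, and all 3 lay inside SOX2-OT. The nearest NC region lay 54.0 kb from SOX2. Covered length was thus 5.20 kb in sh1, 11.4 kb in sh4 and 0 kb in NC.

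At SOX3 all 3 libraries had a region. Covered length was 2.40 kb in sh1, 5.80 kb in sh4 and 4.0 kb in NC, so the value of NC lay between those of the hairpins. The sh4 region contained the whole NC region, 4000 bp, and both ended at the same position 30.8 kb below the gene. Their folds were 1.57 (1.25 to 1.98) in sh4 and 1.53 (1.17 to 2.02) in NC, which lie inside each other's intervals. The sh1 region lay elsewhere, 45.2 kb below the gene, with a fold of 1.74 (1.23 to 2.48). SOX1 had no region in the window in any library, and the nearest were 418.7 kb away in sh1, 555.9 kb in sh4 and 65.3 kb in NC. In its distances to the hairpin regions SOX1 is the outlying gene of the 9.

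SOX21, the repressor of the group, resembled SOX2 in having regions in both hairpins and none in NC, with 5.60 kb in sh1, 11.6 kb in sh4 and 0 kb in NC. The sh1 region lay 27.5 kb above the gene and the 3 sh4 regions 14.5 kb above and 27.2 and 41.8 kb below it, with folds of 1.57 to 1.77 in sh4 and 1.53 in sh1. None of the sh4 regions overlapped the sh1 region. The nearest NC region lay 59.6 kb away. SOX9 had 1 region, in sh4, 46.0 kb above the gene with a fold of 1.40 (1.13 to 1.74), of which 4.02 kb lay in the window. The values were 0 kb in sh1 and in NC, and the nearest NC region stood 63.2 kb from the gene.

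Among the homeodomain genes each region lay in a single library. At PAX6 the only region was in NC, 37.8 kb above the gene (chromosome 11, 31855801 to 31858400) inside PAX6-AS1, with a fold of 1.68 (1.21 to 2.34; 104 and 61 reads), and coverage was 0 kb in sh1, 0 kb in sh4 and 2.60 kb in NC. At LHX2 the only region was also in NC, 34.7 kb above the gene, with a fold of 1.44 (1.16 to 1.79), and coverage was 0 kb in sh1, 0 kb in sh4 and 5.60 kb in NC. At OTX2 the only region was in sh1, 34.5 kb below the gene, with a fold of 1.41 (1.16 to 1.71), and coverage was 7.40 kb in sh1, 0 kb in sh4 and 0 kb in NC. SIX3 had 0 kb in each library. Its nearest regions lay 100.1 kb away in sh1, 154.5 kb in sh4 and 97.9 kb in NC.

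**Figure D3:**
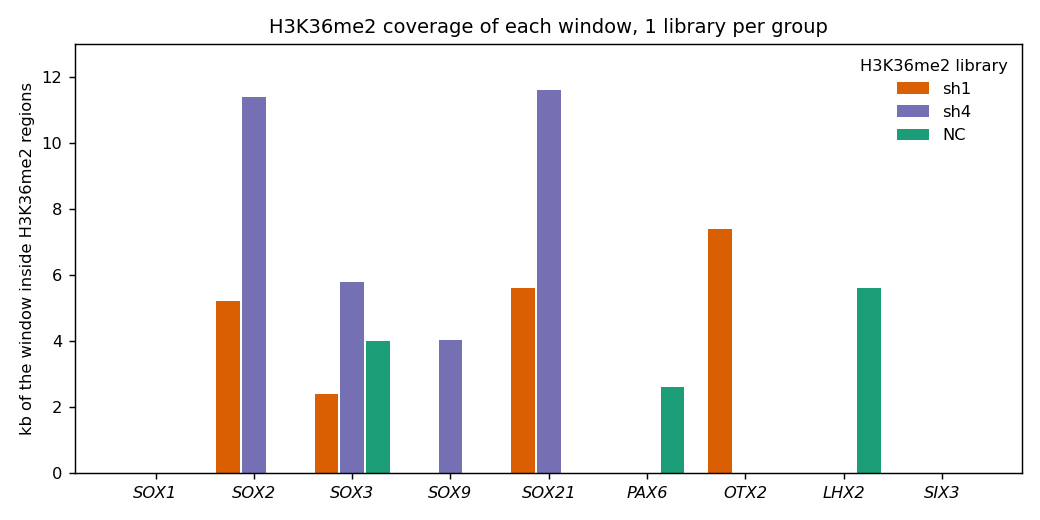
Length of each window inside H3K36me2 regions (kb) in sh1, sh4 and NC, 1 library per bar, with no error available. SOX2 and SOX21 have bars in both hairpins and none in NC, PAX6 and LHX2 in NC alone, OTX2 in sh1 alone, SOX9 in sh4 alone, SOX3 in all 3, and SOX1 and SIX3 have none. Regions beyond the 50 kb flanks, among them the nearest NC regions of SOX2 and SOX21, are not counted.

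Counted by direction, coverage was higher than NC in both hairpins at 2 of the 9 genes (SOX2 and SOX21), beside 8.54% of all gene windows. It was lower in both at 2 (PAX6 and LHX2), beside 26.2%, and opposite at 1 (SOX3), beside 10.2%. Of the 10792 genes no longer than PAX6, coverage was higher in both at 476, lower in both at 2181 and opposite at 571. Taking the hairpins singly, sh1 was higher at 3, beside 18.4%, and lower at 3, beside 31.4%, and sh4 was higher at 4, beside 18.1%, and lower at 2, beside 31.4%. The hairpins share the NC library, and each of these calls rests on 1 to 4 regions. Several also depend on the flank of 50 kb. The nearest NC region lay 54.0 kb from SOX2 and 59.6 kb from SOX21, shortly beyond it. At PAX6 the nearest hairpin regions lay 71.6 kb away in sh1 and 61.4 kb in sh4.

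The 9 genes lay closer to H3K36me2 than the median gene, as did most of the other factor lists. The distance from the body to the nearest region had a median of 71.6 kb in sh1, 61.4 kb in sh4 and 59.6 kb in NC over the 9 genes, beside 182.0, 212.6 and 80.6 kb over all protein-coding genes and 345.6, 393.9 and 148.7 kb over those no longer than PAX6. It was below the median of all genes at 8 of 9 in sh1, 8 of 9 in sh4 and 7 of 9 in NC. In the other lists the median was 47.3 kb for patterning, 66.3 kb for pluripotency, 63.3 kb for mesoderm and endoderm, 27.9 kb for neural crest and 61.1 kb for neuronal factors in NC. In the hairpins the mesoderm and endoderm list stood at 255.6 kb in sh1 and 422.4 kb in sh4, and the other 4 lists at 70.7 to 94.0 kb in sh1 and 54.6 to 115.7 kb in sh4. Among the 9 genes SOX1 was the exception in both hairpins, and OTX2 and SIX3 were the exceptions in NC. In NC the distances were 30.8 to 110.7 kb, a narrower spread than the 19.5 to 418.7 kb of sh1 and the 11.5 to 555.9 kb of sh4.

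**Figure D4:**
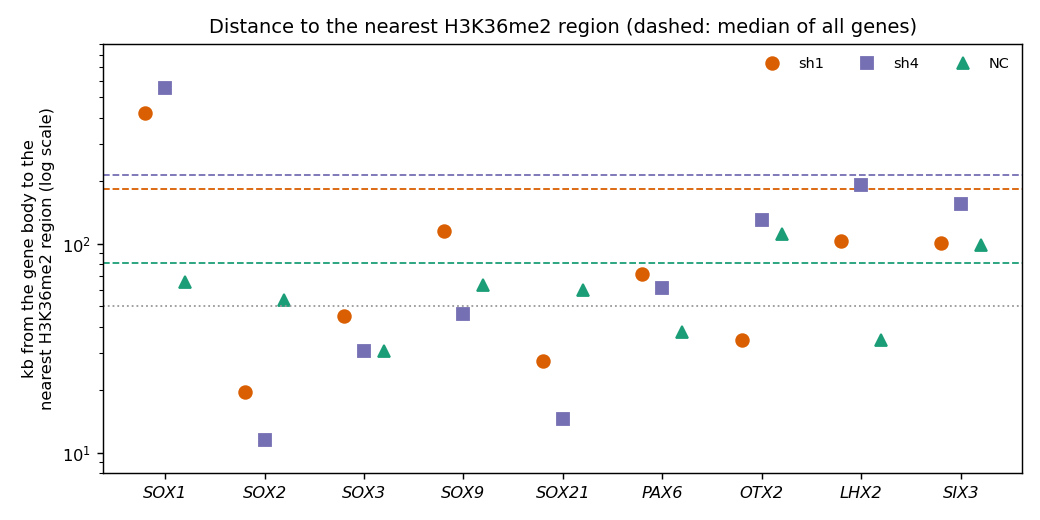
Distance from each gene body to the nearest H3K36me2 region in sh1, sh4 and NC (kb, log axis). Dashed lines are the medians of all protein-coding genes, 182.0 kb in sh1, 212.6 kb in sh4 and 80.6 kb in NC, and the dotted line is the 50 kb flank. SOX1 lies above the dashed lines in both hairpins and OTX2 and SIX3 in NC.

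The share of KDM2A peaks on H3K36me2 regions in these windows was somewhat below the share of the windows that the regions covered, at small counts. Of the 224 KDM2A peaks of NC cells, 3 (1.34%) touched an sh1 region, 6 (2.68%) an sh4 region and 2 (0.893%) an NC region. The regions covered 2.10% of the windows in sh1, 3.34% in sh4 and 1.24% in NC. Of the 340729 KDM2A peaks in all gene windows, 3.23% touched an sh1 region, 3.10% an sh4 region and 4.03% an NC region. Regions covered 2.24% of all gene windows in sh1, 2.42% in sh4 and 2.83% in NC, with stretches shared by windows counted repeatedly. Over all gene windows the share of peaks was thus above the covered share. At 2 to 6 peaks these counts set nothing apart at the 9 genes. Of the 14 regions, 10 held no KDM2A peak. The share of all H3K36me2 regions without a peak was not computed, so this count has no background beside it. The NC regions at SOX3 and PAX6 held none, and the NC region at LHX2 held 2, with pileups of 7 and 9. Of the 8 KDM2A peaks with an FDR under 0.05, 0 touched a region of any library, beside 7.34% of such peaks in all gene windows, a share too low for 8 peaks to show a difference from it.

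Other factor lists were set beside the 9 genes for their counts. A KDM2A peak with an FDR under 0.05 was found at 11 of 25 other neural patterning factors, 7 of 10 pluripotency factors, 7 of 12 mesoderm and endoderm factors, 7 of 10 neural crest factors and 6 of 14 neuronal differentiation factors. Median peak density was 20.6, 21.4, 24.5, 17.1 and 19.5 per 100 kb in the same order. The highest pileups in the windows were 22 at HES5 and 20 at DACH1 (patterning list), 16 at NANOG and 14 at POU5F1 (pluripotency), 20 at FOXA2 and 15 at TBXT (mesoderm and endoderm), 18 at FOXD3 and 17 at PAX3 (neural crest), and 16 at ELAVL4 and 15 at STMN2 (neuronal differentiation). These are the highest windows of each list. The median over windows of the highest pileup was 12 for the 9 genes, 12 over all protein-coding gene windows, and 11.5 to 12.5 in the lists. KDM2A peaks in the gene bodies were at 36.2 per 100 kb in the 9 genes (24.4 to 51.7) and at 13.1 to 30.5 in the lists. That interval overlaps those of the mesoderm and endoderm (23.9 to 38.5), pluripotency (21.2 to 32.2) and neuronal lists (20.5 to 30.7). It lies above those of the patterning (11.1 to 15.3) and neural crest lists (15.6 to 22.4). The lists were not matched for gene length, and the patterning bodies add to 1207.0 kb. H3K36me2 coverage was lower than NC in both hairpins at 12 of 25 patterning, 3 of 10 pluripotency, 3 of 12 mesoderm and endoderm, 6 of 10 neural crest and 1 of 14 neuronal genes. It was higher in both at 2, 1, 0, 0 and 2 of them, and at 2 of the 9. Covered length in sh4 over NC was 2.69 times for the 9 genes and 0.274 to 1.57 times in the lists, and in sh1 over NC 1.69 times and 0.141 to 1.80 times. As above, the ratios of the 9 genes turn with flanks of 100 kb, and those of the lists were not computed there. By covered share of the window in the 3 libraries, the windows most like that of SOX3, which had 2.35% in sh1, 5.68% in sh4 and 3.92% in NC, were those of NOSTRIN and FAS, at Euclidean distances of 0.299 and 0.421 percentage points.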

How the data were processed

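The series holds 8 libraries of neural progenitors from H9 cells. The 4 immunoprecipitates have deposited lists, and their 4 inputs enter only through the authors' lists. Per the submitters' processing notes, Bowtie 1.1.2, MACS2 and SICER were used with the builds hg38 and GRCh38, and which tool made which list is not given in the sources used here. In the lists deposited by the authors the fold is a linear ratio of immunoprecipitate to background, the p-value and FDR are those of the authors' peak caller, the KDM2A pileup is a signal with any scaling unstated, and the H3K36me2 score, not used further, is a capped log of the fold. The deposited lengths are in bp. H3K36me2 starts count from 0 and were shifted to count from 1, and KDM2A positions are as deposited.

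Gene positions came from RefSeq (GRCh38.p14). Genes of alternate or unplaced sequences were left out (679, of them 153 protein-coding). A peak or region counted if it overlapped a window by at least 1 bp, and coverage was cut at the window's limits. Reads per H3K36me2 region were recovered from fold and p-value. Immunoprecipitated reads lay within 0.001 of a whole number for 100% of regions and input reads within 0.01 for 100%. The median region held 151 immunoprecipitated reads in sh1, 156 in sh4 and 162 in NC. Total library depths are unknown. Intervals are exact (Poisson for counts, binomial for folds) at 95% and cover counting error only. The genes and comparison lists were chosen with earlier results of these data known. Genes named beside the 9 were protein-coding neighbours, the 2 of each comparison list with the highest pileup, and the 2 windows most like any of the 9 that had regions in all 3 libraries. Noncoding neighbours were named, and promoter windows, CG counts, the split into body and flanks and the distance steps were added, after the values had been seen. Scripts used Python 3.11.15, pandas 2.3.3, scipy 1.17.1 and matplotlib 3.10.9, and interval counting and read recovery were tested on simulated data. Alternatives were other flanks, stricter limits and other overlap rules.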

Additional observations from a re-analysis of the deposited data

Results flagged for a closer look

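At SOX3 the length covered by H3K36me2 regions was below NC in sh1 and above NC in sh4. The difference was -1.6 kb for sh1 and 1.8 kb for sh4, with 2.40 kb covered in sh1, 5.80 kb in sh4 and 4.0 kb in NC. Each value comes from 1 region of 1 library, and the difference between the hairpins was not tested.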

How the results depend on the processing

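Of 39 alternative values 21 stayed within 1.5 times the reported value or, for medians, within the interval of the median. Keeping KDM2A peaks with an FDR under 0.05 left 0.814 peaks per 100 kb over the 9 windows with a median pileup of 11.5, and flanks of 20 kb gave a median pileup of 7. With an FDR limit of 0.01, 3 genes had a KDM2A peak. The H3K36me2 results rest on few regions. With flanks of 20 kb, 1 gene had a region in sh1, 2 in sh4 and 0 in NC, so no ratio to NC could be formed. With flanks of 100 kb, 5 genes had a region in sh1, 5 in sh4 and 8 in NC, and covered length over NC turned to 0.501 for sh1 and 0.808 for sh4. Keeping regions above the NC median fold of 1.59 left 1 gene in sh1, 2 in sh4 and 1 in NC, with ratios of 0.923 for sh1, a reversal, and 4.15 for sh4. With an FDR under 1e-08, 0 genes were left in sh1, 2 in sh4 and 0 in NC, and no ratio could be formed. Shares of all gene windows were not computed at these changed settings, so the counts of genes here have no background beside them. The causes were not tested beyond the smaller or larger windows and fewer regions that these settings set by construction. No paired analysis was possible because every group holds 1 library. A KDM2A pileup of 8 fragments limits what single peaks can show.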
